A study of Mus musculus with 6 samples.

Results

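The NDR and LATS kinases form a small branch of the AGC protein kinases, and 10 genes of this branch and its activating machinery were followed in mouse osteoblasts labelled NDR1 KO and in WT osteoblasts. They were picked out by symbol from the 29018 genes of the deposited table, where each symbol had 1 gene identifier. The genes encode the kinases NDR1 (Stk38), NDR2 (Stk38l), LATS1 (Lats1) and LATS2 (Lats2), the upstream kinases MST2 (Stk3) and MST1 (Stk4), the MOB co-activators MOB1A (Mob1a) and MOB1B (Mob1b), MOB2 (Mob2), and the Furry-like scaffold Fryl. RNA sequencing compared 3 libraries labelled NDR1 KO with 3 labelled WT. The libraries came from poly(A) RNA of osteoblasts, which lay down bone matrix, taken from the skull vault (calvaria) of newborn mice and put through osteogenic culture. The labels give no strain, sex, KO allele, Cre driver or day of culture, nor whether the replicates were separate animals. Hence the p-values cover nothing beyond the scatter among these 6 libraries, and that scatter could be technical.

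In the Hippo cassette, MST kinases phosphorylate MOB1 and the LATS kinases, which in turn phosphorylate the co-activators YAP and TAZ and keep them out of the nucleus. NDR kinases belong to the same design: they bind MOB1, are phosphorylated by MST-family kinases, and act in cell division, autophagy and vesicle traffic. MOB2 binds NDR kinases but not LATS kinases, and competes there with MOB1. The Furry proteins are large scaffolds that bind NDR kinases, as first described in flies and yeast.

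Stk38 lies on chromosome 17, from 29189854 to 29226969 in the deposited coordinates, whose mouse build the headers do not name and which matched GENCODE release M21 (GRCm38) for 0 of the 10 genes. In the GRCm38.p6 promoter table of RefSeq, 9 of the 10 symbols had an entry, covering 250 bases before to 50 bases after the gene start. The promoters of the 3 genes that passed the test below, and of the NDR1 paralogue Stk38l, are shown as the annotated starts of these genes. Capitals mark matches on either strand to GGAATG (the TEAD core), CACGTG (an E-box), TGACG (a cAMP-response half-site, whose palindrome counts once per strand) or CCGGAAG (an ETS core).
Stk38, chr17:29007946-29008245, minus strand: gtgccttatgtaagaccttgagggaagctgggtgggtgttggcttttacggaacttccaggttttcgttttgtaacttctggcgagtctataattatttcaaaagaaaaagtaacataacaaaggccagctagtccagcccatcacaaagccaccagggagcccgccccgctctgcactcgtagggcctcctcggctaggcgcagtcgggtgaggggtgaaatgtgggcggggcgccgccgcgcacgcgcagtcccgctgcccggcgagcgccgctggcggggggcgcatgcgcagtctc
Stk38l, chr6:146724680-146724979, plus strand: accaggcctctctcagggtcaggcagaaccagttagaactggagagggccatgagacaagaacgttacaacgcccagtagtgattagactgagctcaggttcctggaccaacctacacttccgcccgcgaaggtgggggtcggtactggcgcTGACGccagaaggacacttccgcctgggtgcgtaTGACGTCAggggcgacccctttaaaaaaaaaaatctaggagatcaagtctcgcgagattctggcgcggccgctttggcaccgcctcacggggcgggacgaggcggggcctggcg
Stk4, chr2:164073888-164074187, plus strand: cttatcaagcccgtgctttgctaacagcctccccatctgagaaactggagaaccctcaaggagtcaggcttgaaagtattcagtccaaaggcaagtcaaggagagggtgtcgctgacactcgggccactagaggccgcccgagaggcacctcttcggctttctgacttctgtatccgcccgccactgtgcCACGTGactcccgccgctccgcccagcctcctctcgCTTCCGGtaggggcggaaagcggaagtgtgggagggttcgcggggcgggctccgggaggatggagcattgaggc
Mob1b, chr5:88720621-88720920, plus strand: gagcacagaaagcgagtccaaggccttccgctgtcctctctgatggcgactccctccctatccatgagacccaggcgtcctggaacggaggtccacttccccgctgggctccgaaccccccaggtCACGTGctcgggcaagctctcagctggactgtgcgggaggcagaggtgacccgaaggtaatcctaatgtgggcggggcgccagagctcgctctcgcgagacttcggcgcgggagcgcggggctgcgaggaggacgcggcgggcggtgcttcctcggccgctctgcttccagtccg
The Stk38 window held none of these letters. Stk38l had 3 half-site matches, against 20.8% of 32851 promoters with at least 1. Stk4 and Mob1b each held 1 E-box, which 7.15% of promoters hold, and Stk4 also 1 ETS core, held by 8.86%. The E-box was also found once in 1 of the 2 Lats2 windows, and the ETS core in windows of Mob2. Half-sites were also found in Lats2 and Mob2 windows, and neither of these genes passed the test below. The TEAD core, in 14.7% of promoters, was found once in the Mob1a window and once in 1 of the 2 Lats2 windows. A match is only a string of letters and says nothing about binding in these cells.

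Genes of this family come in pairs, so it matters whether reads of a pair can be told apart. The longest identical coding runs within each pair, from GENCODE M21 transcripts, were 17 to 23 bases long.
Stk38 and Stk38l: acactggagaattttta
Lats1 and Lats2: tgtactttgtgatggactacat
Stk3 and Stk4: tggattgttatggagtactgtgg
Mob1a and Mob1b: attaagtgttctgcaccaaa
Coding identity was 75.7% for Stk38 and Stk38l, 66.7% for Lats1 and Lats2, 75.4% for Stk3 and Stk4, and 79.6% for Mob1a and Mob1b. No word of 50 bases was therefore shared between the coding sequences of a pair. The read length is not given in the sources used here. Other copies did share words: 17.99% of the 50-base words of Stk38l also occur in the processed pseudogenes Gm3555 and Gm7451, and 41.2% of those of Lats2 occur in Gm49361. The Stk38l and Lats2 levels are uncertain through these shared words, by an amount that was not measured. Gm49361 was not among the genes of the deposited table, so it had no counts of its own there. Gm3555 had a KO count of 37, 43 and 55 and a WT count of 52, 41 and 27, against 1292 to 2015 for Stk38l. For Gm7451 the counts were 12, 0 and 7 in KO and 13, 13 and 9 in WT. For the other 8 genes the shared part was at most 0.763%.

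The libraries held 61461870 to 76159034 counts each, and the 10 genes were read with 1125 to 15549 counts per library, so all passed the filter on low counts. With edgeR's quasi-likelihood test on the counts, 2 of the 10 fell in KO (Stk38 and Stk4), 1 rose (Mob1b) and 7 did not pass a Benjamini-Hochberg adjusted p of 0.05. Of all 18221 tested genes, 22.9% were called, 11.7% as lower and 11.2% as higher, so 3 calls among 10 genes are near that background. The KO and WT values did not overlap for those 3 genes, against 38.2% of all tested genes. The same 3 genes were called by DESeq2 (19.4% of all genes), by limma on log2(FPKM + 1) (21.5%) and by edgeR with a replicate block (21.3%). The median log2 change of the 10 genes was -0.05, against 0.00 over all tested genes, and the median absolute change 0.07 against 0.17. CPM below denotes a count divided by the library size after scaling with the trimmed mean of M-values (TMM). FPKM divides the count by gene length and by the library total without TMM, so libraries compare differently by FPKM and by CPM. The length of Stk38 implied by count, FPKM and unscaled total varied by 0.289% over the 6 libraries (coefficient of variation). The TMM factors ran from 0.981 (WT replicate 3) to 1.021 (KO replicate 2). Changes are log2 KO over WT ± SE. In bulk libraries such as these, fewer cells of a type and less RNA per cell cannot be told apart.

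**Figure D1:**
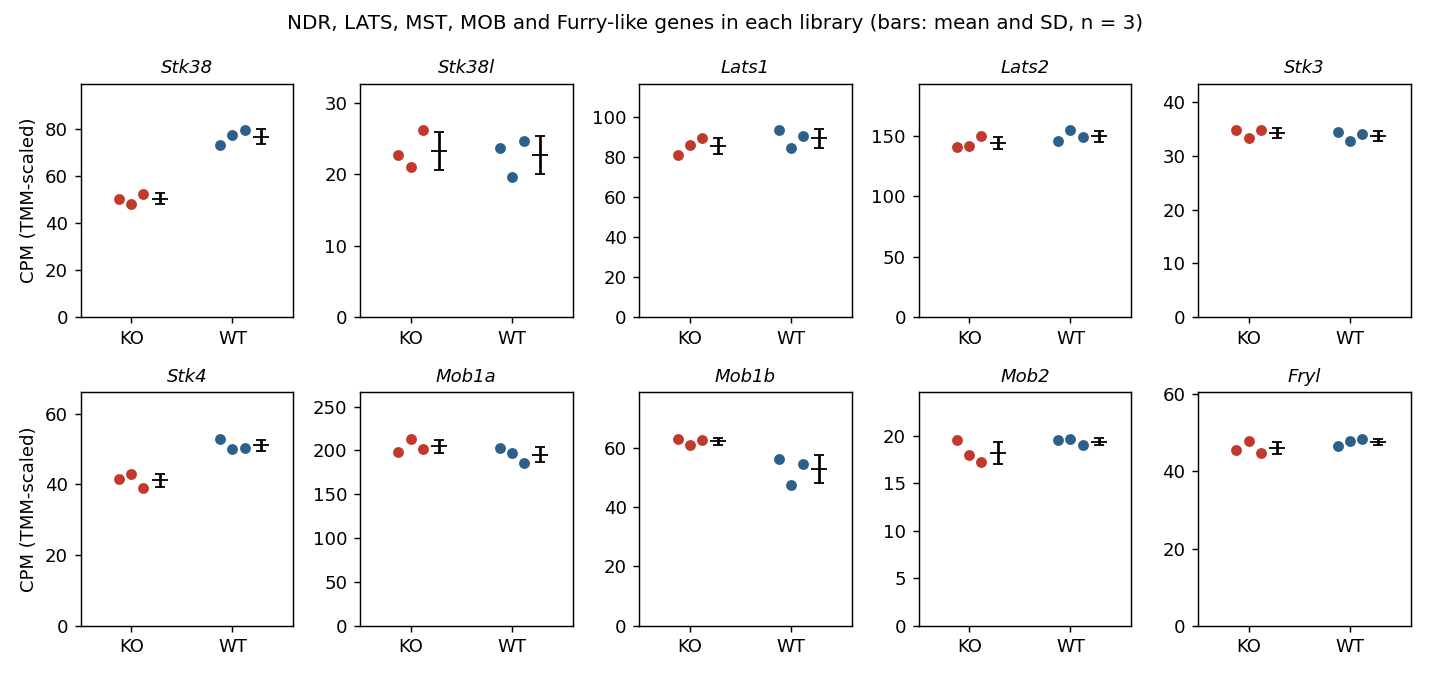
CPM of the 10 genes in each library (points), with mean and SD (bars, n = 3 per group), KO left and WT right in each panel, each axis from 0. The KO points lie wholly below the WT points for Stk38 and Stk4 and wholly above them for Mob1b, and overlap for the other 7 genes.

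Stk38, the gene labelled as knocked out, fell in the KO libraries but was still read. It had 50.3, 47.9 and 52.5 CPM in KO and 73.1, 77.4 and 79.4 CPM in WT. All 3 KO libraries lay below all 3 WT libraries, with 65.6% of the WT level left (95% interval 60.8 to 70.6%). The log2 change was -0.61 ± 0.05 (edgeR, Benjamini-Hochberg adjusted p = 8.10e-06), larger in size than 83.1% of tested genes. Counts and FPKM pool all exons: the length implied by count over FPKM was 1.06 times the merged exons of GENCODE M21 for each of the 10 genes, 11560 bases for Stk38. Its coding transcript is 3351 bases long. The values therefore do not show which exons were read in KO, and protein was not measured.

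A small RNA gene in intron 4 of the 14-exon Stk38 transcript, Gm23887, was read mainly in KO. GENCODE M21 annotates it as an snRNA of 172 bases on the strand of Stk38, at chromosome 17, 29208951 to 29209122 in the deposited coordinates, and its sequence is shown because none of its 50-base words occurs in another gene's transcript.
Gm23887: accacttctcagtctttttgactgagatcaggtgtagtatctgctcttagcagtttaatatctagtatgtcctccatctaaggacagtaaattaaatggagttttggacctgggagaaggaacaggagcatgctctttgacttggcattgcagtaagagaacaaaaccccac
It had 15, 27 and 9 counts in KO and 0, 0 and 4 in WT, so the groups did not overlap, as was also so for 38.2% of tested genes by CPM. These counts were too low for the filter, and in edgeR without a filter (log2 change 3.52) the Benjamini-Hochberg adjusted p was 0.143. It lies 1149 bases from exon 4 and 1715 bases from exon 5, so no exon of the annotated Stk38 transcripts covers it. Its 50-base words were searched in annotated transcripts only, so reads of unspliced Stk38 RNA were not told apart.

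For NDR2, the closest relative of NDR1, no difference in Stk38l RNA passed the test. Stk38l (ENSMUSG00000001630, chromosome 6, 146626493 to 146680310) had 22.7, 21.0 and 26.2 CPM in KO and 23.7, 19.7 and 24.7 CPM in WT. The groups overlapped, and KO replicate 3 was the highest of the 6 libraries. The change was 0.04 ± 0.10 (edgeR, Benjamini-Hochberg adjusted p = 0.834), with an interval of the KO level from 87.9% to 120.2% of WT. Within each library the log2 ratio of Stk38 to Stk38l FPKM was -0.10, -0.06 and -0.24 in KO and 0.38, 0.73 and 0.44 in WT. The ratio was below 0 in every KO library and above 0 in every WT library. It differed by -0.65 (KO minus WT, exact two-sided permutation test, p = 0.1, the smallest that 3 against 3 libraries allow; 0.2 after Benjamini-Hochberg adjustment over 4 pairs). The summed FPKM of both genes was 8.64, 8.13 and 9.40 in KO and 10.3, 9.93 and 11.03 in WT. That sum in KO was 83.7% of the WT mean, with no overlap.

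LATS1 and LATS2, the kinases that phosphorylate YAP and TAZ, did not differ between the genotypes past the test. Lats1 (ENSMUSG00000040021, chromosome 10, 7556978 to 7592224) had 81.0, 86.1 and 89.2 CPM in KO and 93.2, 84.1 and 90.5 CPM in WT. Its change was -0.06 ± 0.05 (edgeR, Benjamini-Hochberg adjusted p = 0.417), which places KO between 88.8% and 103.1% of WT. Lats2 (ENSMUSG00000021959, chromosome 14, 57927119 to 57983580) had 141.4, 142.2 and 150.0 CPM in KO and 145.7, 155.0 and 149.3 CPM in WT. Both sets of values overlapped between the groups. For Lats2 the change was -0.05 ± 0.04 (edgeR, Benjamini-Hochberg adjusted p = 0.344), an interval from 91.3% to 101.8% of WT. Lats1 made up 36.1 ± 0.65% of the summed FPKM of the pair in KO and 36.3 ± 1.92% in WT (SD, n = 3 each). The log2 ratio differed by -0.01 (exact permutation test, p = 0.8, adjusted 0.8).

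Among the upstream kinases, Stk4 fell and Stk3 did not pass the test. Stk4, which encodes MST1 (ENSMUSG00000018209, chromosome 2, 163912242 to 163997444), had 41.5, 42.8 and 39.1 CPM in KO and 52.9, 50.1 and 50.3 CPM in WT. The highest KO library stayed below the lowest WT library. KO held 80.6% of the WT level (95% interval 74.6 to 87.1%), a log2 change of -0.31 ± 0.05 (edgeR, Benjamini-Hochberg adjusted p = 0.00121). The span of Tomm34, on the other strand, overlaps the start of Stk4 and reaches an exon of Stk4. It is not given whether counting used strand. Tomm34 had 2145, 1825 and 2208 counts in KO and 2018, 2064 and 2281 in WT. MST1 is best known from lymphocytes and other blood cells. Of 8 lymphocyte markers only Lck could be tested, and it was barely read, at 0.314 to 0.558 CPM in KO and 0.183 to 0.459 CPM in WT. Of 18 macrophage markers, given below, 16 rose and 0 fell, against 11.2% and 11.7% of all tested genes. Their relation to the Stk4 change was not tested.

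Stk3, which encodes MST2 (ENSMUSG00000022329, chromosome 15, 34875642 to 35179067), had 34.7, 33.2 and 34.7 CPM in KO and 34.4, 32.7 and 34.1 CPM in WT. Its change was 0.02 ± 0.05 (edgeR, Benjamini-Hochberg adjusted p = 0.808), which allows KO from 94.0% to 109.8% of WT. Stk3 made up 44.5%, 42.6% and 46.0% of the summed FPKM of Stk3 and Stk4 in the KO libraries, and 38.4%, 38.5% and 39.4% in the WT libraries. The shares did not overlap, and the log2 ratio of Stk3 to Stk4 was higher by 0.33 in KO (exact permutation test, p = 0.1, the smallest possible, adjusted 0.2). With the length of the transcript with the longest coding sequence, an alternative chosen after seeing the data, the Stk3 share was 59.9 ± 1.63% in KO and 54.2 ± 0.60% in WT (SD, n = 3 each). Which MST gene was the more abundant thus turned over with the length in both genotypes. The summed FPKM of the pair was 12.3, 12.3 and 11.7 in KO and 13.5, 12.9 and 13.1 in WT.

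Of the MOB1 co-activators, which both kinase arms bind, Mob1b rose and Mob1a did not pass the test. Mob1b (ENSMUSG00000006262, chromosome 5, 88868714 to 88912079) had 63.0, 60.8 and 62.8 CPM in KO and 56.3, 47.6 and 54.5 CPM in WT. All KO libraries lay above all WT libraries, with WT replicate 2 the lowest. The change was 0.24 ± 0.06, a 1.18-fold higher level (edgeR, Benjamini-Hochberg adjusted p = 0.0172). That call was lost without KO replicate 1 (log2 change 0.23, adjusted p = 0.0616) and in limma on log2(FPKM + 1) with no filter (adjusted p = 0.0642). The adjusted p ran from 0.00154 to 0.0642 over 15 alternatives in edgeR, limma and DESeq2. The processed pseudogene Gm15682 lies in an intron of Mob1b on the other strand. It had 85, 55 and 126 counts in KO and 60, 70 and 69 in WT, against 3123 to 4831 for Mob1b.

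Mob1a (ENSMUSG00000043131, chromosome 6, 83302998 to 83320758) was the most abundant of the 10 genes, with 198.5, 212.9 and 202.1 CPM in KO and 203.0, 197.1 and 185.8 CPM in WT. The groups overlapped, and the change was 0.07 ± 0.04 (edgeR, Benjamini-Hochberg adjusted p = 0.279; KO from 98.6% to 111.3% of WT). It made up 91.2 ± 0.44% of the summed FPKM of both MOB1 genes in KO and 92.1 ± 0.72% in WT (SD, n = 3 each). The log2 ratio of Mob1a to Mob1b differed by -0.17 (KO minus WT; exact permutation test, p = 0.2, adjusted 0.267), and the ratios overlapped. The summed FPKM of the MOB1 pair was 43.8, 46.6 and 44.0 in KO and 42.6, 41.0 and 39.2 in WT. The KO mean was 109% of the WT mean, with no overlap on this scale, which is without TMM. With library totals in place of TMM, the edgeR log2 change was 0.12 for Mob1a and 0.28 for Mob1b, against 0.07 and 0.24. The sums were not compared on the TMM scale.

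Neither Mob2, whose protein competes with MOB1 for NDR kinases, nor the scaffold gene Fryl passed the test. Mob2 (ENSMUSG00000025147, chromosome 7, 141562272 to 141614802) had 19.5, 17.9 and 17.2 CPM in KO and 19.5, 19.7 and 19.0 CPM in WT. Its change was -0.09 ± 0.07 (edgeR, Benjamini-Hochberg adjusted p = 0.413; KO from 84.7% to 104.3% of WT). Fryl (ENSMUSG00000070733, chromosome 5, 73177330 to 73413962) had 45.6, 47.8 and 44.9 CPM in KO and 46.7, 47.9 and 48.4 CPM in WT. The groups overlapped for both genes. For Fryl the change was -0.05 ± 0.05 (edgeR, Benjamini-Hochberg adjusted p = 0.523; KO from 90.2% to 103.7% of WT), and its sign turned to 0.00 or just above in limma on FPKM and with library totals.

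**Figure D2:**
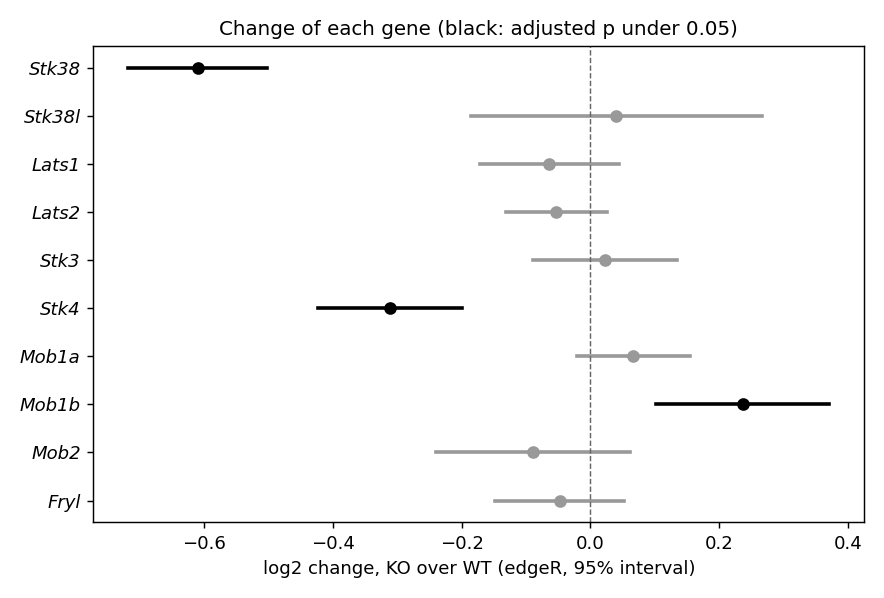
Log2 change KO over WT of each gene (points) with the 95% interval from edgeR (lines), black where the adjusted p was under 0.05. Stk38 (-0.61), Stk4 (-0.31) and Mob1b (0.24) stand clear of 0, while the intervals of the other 7 genes cross it.

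By deposited FPKM, the order of the genes was the same in both genotypes apart from Stk38, but it depended strongly on the gene length used. By mean FPKM the WT order was Mob1a (37.7), Lats2 (19.9), Lats1 (11.3), Stk4 (8.06), Stk38 (6.13), Stk3 (5.10), Stk38l (4.30), Mob1b (3.25), Fryl (2.89) and Mob2 (2.87). In KO, Stk38 (4.15) stood below Stk3 (5.36) and Stk38l (4.57). Neighbours in WT did not overlap, except Mob1b with Fryl and Fryl with Mob2. In KO, Stk38l overlapped Stk38, Stk38 overlapped Mob1b (3.96), and Fryl overlapped Mob2. These levels rest on the length by which the authors divided. When the length of the transcript with the longest coding sequence was used in place of all merged exons, an alternative chosen after seeing the data, the Stk38 level was 14.3 ± 0.57 in KO and 21.1 ± 0.91 in WT. On that scale Stk38 had rank 4 in KO and rank 3 in WT (SD, n = 3 each). Mob2, which had rank 10 by FPKM, had rank 3 in KO and rank 4 in WT, and Stk4, which had rank 4 by FPKM, had rank 8 in both, below Stk3 and Stk38l. The Stk38 share of the NDR pair was 59.4 ± 1.62% in KO and 69.6 ± 2.69% in WT. By the deposited FPKM that share was 47.7 ± 1.67% in KO and 58.8 ± 3.11% in WT. The share was lower in every KO library than in any WT library by FPKM, and its KO mean was lower on both scales, but which of the NDR genes is more abundant in KO depended on the length used.

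**Figure D3:**
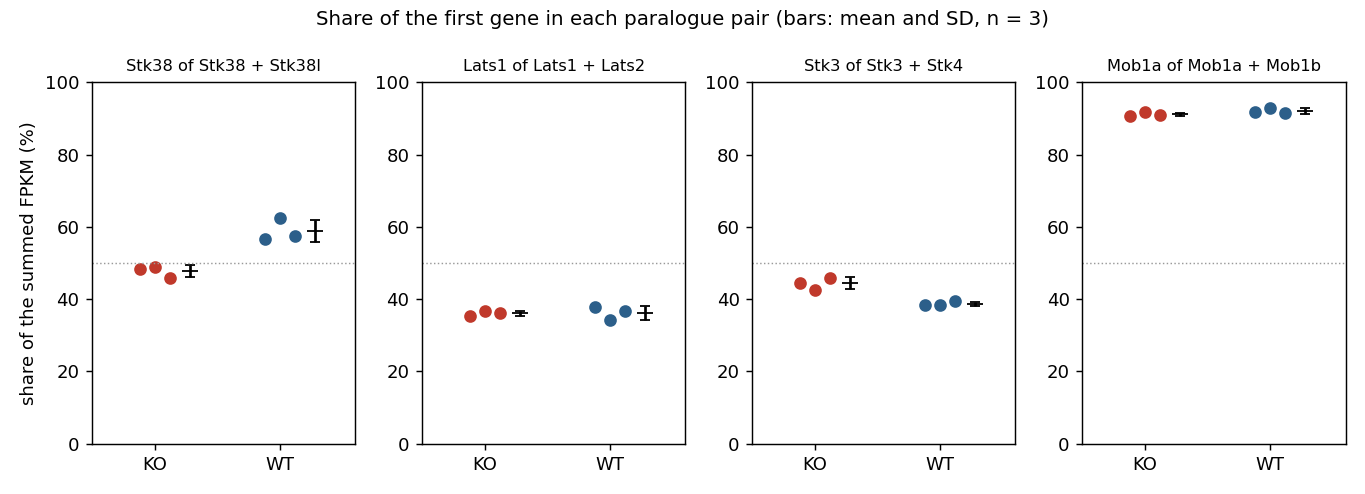
Share of the first gene in the summed FPKM of its paralogue pair in each library (points), with mean and SD (bars, n = 3 per group), KO left and WT right. The Stk38 share is 45.8 to 48.9% in KO and 56.6 to 62.4% in WT, the Stk3 share 42.6 to 46.0% in KO and 38.4 to 39.4% in WT, and the other pairs overlap.

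Markers of bone cells and of other cell types also moved with the genotype. Their counts stand beside the 11.2% of all tested genes called as higher and the 11.7% called as lower. Lists of 6 to 10 genes are small for such a comparison, which was not tested. Of 18 macrophage markers 16 rose and 0 fell, with a summed level of 1088 to 1202 CPM in KO and 426.9 to 560.6 CPM in WT. Most of that sum was Lyz2 (729.9 ± 40.2 CPM in KO and 336.3 ± 48.8 CPM in WT; SD, n = 3 each). Of 10 osteoblast markers 7 fell and 0 rose, with a summed level of 42520 to 44850 CPM in KO and 59740 to 61580 CPM in WT. Nearly all of it was Col1a1 (mean 23044.5 CPM in KO, 31683.5 CPM in WT) and Col1a2 (mean 20295.7 CPM in KO, 28885.6 CPM in WT). The 3 that did not pass were Sp7 (0.15 ± 0.07), Ibsp (0.39 ± 0.16) and Bglap (-0.90 ± 0.50). In skeletal muscle 4 of 8 tested markers fell and 0 rose. The muscle markers summed to 7.21 to 10.02 CPM in KO and 31.3 to 37.9 CPM in WT. Myh8 made up most of the WT sum (21.5 ± 2.52 CPM) but stood at only 1.01 ± 0.49 CPM in KO (SD, n = 3 each). Of 7 tested adipocyte markers 6 fell and 0 rose, and they summed, mostly through Lpl, to 128.3 to 137.3 CPM in KO and 271 to 282 CPM in WT. Of 6 tested osteoclast markers 2 fell, 0 rose and 4 did not pass. Their sum of 236 to 240.3 CPM in KO and 454.6 to 460.2 CPM in WT differed through those 2 genes, Mmp9 (3.72 ± 0.59 CPM in KO and 143.9 ± 7.76 CPM in WT) and Ctsk (218 ± 3.77 CPM in KO and 298.4 ± 6.35 CPM in WT; SD, n = 3 each). Of 6 endothelial markers 3 fell and 0 rose, with a sum of 8.94 to 11.05 CPM in KO and 15.8 to 16.8 CPM in WT. The 8 chondrocyte markers moved both ways: Col2a1 and Sox9 rose, Matn1, Col9a1 and Col11a2 fell, and 3 did not pass (median log2 change -0.11). Their sum, 4975 to 5367 CPM in KO and 3632 to 4052 CPM in WT, was mostly Col2a1 (4488 ± 227 CPM in KO and 2961 ± 163 CPM in WT; SD, n = 3 each). The part of these cells in the changes of Stk38, Stk4 and Mob1b was not tested.

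The other genes of the pathway came from 7 lists by role. Their counts are to be read beside the 11.2% of all tested genes called as higher and the 11.7% called as lower. Upstream kinases other than MST1 and MST2 can also activate LATS or NDR kinases. Of 13 such genes 4 rose, 1 fell and 8 did not pass (median log2 change 0.10). Map4k4, a kinase of the MAP4K group that acts on LATS, had 222.5, 220.4 and 222.1 CPM in KO and 292.0, 292.4 and 290.9 CPM in WT (-0.40 ± 0.02). Its relative Map4k3 rose by 0.27 ± 0.03. Taok3 (0.18 ± 0.05) and Map4k2 (0.25 ± 0.07) also passed edgeR's test with Benjamini-Hochberg adjusted p = 0.0194 and 0.0318, and Taok3 was called in 11 and Map4k2 in 7 of 15 alternatives. Tnik (0.45 ± 0.13), outside the rule for named genes, was the other one that rose. Without KO replicate 3, 1 of the 13 rose. With any other library left out, 2 or 3 rose. The NDR-activating kinase MST3 (Stk24) had a change of -0.06 ± 0.05 (edgeR, Benjamini-Hochberg adjusted p = 0.505).

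Of 5 further MOB and Furry genes 2 rose and 0 fell (median 0.15). Mob3a stood at 69.1 ± 4.07 CPM in KO and 60.5 ± 2.82 CPM in WT (SD, n = 3 each), and Mob4, the MOB of the STRIPAK phosphatase complex, at 47.3 ± 2.01 CPM in KO and 42.6 ± 1.06 CPM in WT. Their adjusted p were 0.0247 and 0.0487 (edgeR, Benjamini-Hochberg). Neither was called without KO replicate 2, without WT replicate 1 or without WT replicate 3. Mob3b (0.68 ± 0.27), Mob3c (-0.23 ± 0.08) and Fry (-0.12 ± 0.15) did not pass.

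Scaffolds, adaptors and cadherins upstream of the cassette held the largest change. Of 20 genes 4 rose, 7 fell and 9 did not pass (median -0.06). Dchs1, an atypical cadherin and the ligand of Fat4, had 53.5, 53.7 and 55.4 CPM in KO and 139.0, 132.8 and 138.5 CPM in WT. It changed by -1.34 ± 0.03, a 2.52-fold lower level (edgeR, Benjamini-Hochberg adjusted p = 3.51e-09). Its receptor Fat4 fell as well, to 293.1, 294.5 and 280.9 CPM in KO, against 439.9, 433.6 and 458.2 CPM in WT (-0.62 ± 0.03, adjusted p = 2.37e-07 in the same edgeR test). Both kept the 3 KO values far below the 3 WT values. The RAS-association gene Rassf2, whose protein binds MST kinases, changed by -0.47 ± 0.05, and Ptpn14, a phosphatase that holds YAP in the cytoplasm, by 0.49 ± 0.03. Of the core adaptors, chosen after their values were seen, Sav1, the partner of MST kinases, was at 0.17 ± 0.04 (adjusted p = 0.0105) and Nf2 at -0.14 ± 0.03 (adjusted p = 0.0112) in edgeR's Benjamini-Hochberg adjusted test.

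The STRIPAK complex, a PP2A phosphatase that removes phosphate from MST kinases, gave no call. Of 13 genes 0 passed edgeR's test at a Benjamini-Hochberg adjusted p of 0.05 (median -0.02), 0 passed in DESeq2, and 2 had an unadjusted p under 0.05 in edgeR. The lowest adjusted p were those of Strn4 (-0.11 ± 0.04, adjusted p = 0.0539), Strn3 (-0.10 ± 0.03, adjusted p = 0.0611), Ppp2cb (0.07 ± 0.04) and Ppp2r1a (-0.06 ± 0.04). Strn4 and Strn3 passed as lower with a filter on a mean CPM of at least 1, and Ppp2cb as higher with library totals and in limma on FPKM + 1 or FPKM + 0.1.

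Of 8 genes of the nuclear effectors 1 rose, 3 fell and 4 did not pass (median -0.06). Vgll4, a cofactor that competes with YAP for TEAD factors, stood at 55.2 ± 1.87 CPM in KO and 74.6 ± 3.56 CPM in WT (-0.43 ± 0.05). Wwtr1, which encodes TAZ, changed by -0.27 ± 0.04 and Tead2 by -0.24 ± 0.04, and each had all KO values below all WT values. Yap1 had a change of 0.02 ± 0.04 (edgeR, Benjamini-Hochberg adjusted p = 0.804). Tead4 was barely read, at 1.63 ± 0.35 CPM in KO and 0.847 ± 0.15 CPM in WT (SD, n = 3 each), and its call at adjusted p = 0.0298 (edgeR, Benjamini-Hochberg) was lost in 7 of 15 alternatives.

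Among 9 reported substrates and partners of NDR kinases, 3 rose, 1 fell and 5 did not pass (median 0.00). Cdkn1a, which encodes the cell cycle inhibitor p21, a protein that NDR kinases phosphorylate, had 431.2, 453.2 and 426.9 CPM in KO and 254.5, 253.9 and 261.7 CPM in WT. The change was 0.77 ± 0.03 (edgeR, Benjamini-Hochberg adjusted p = 4.35e-08). S100b, a calcium-binding protein that can bind and activate NDR kinases, had 26.9, 26.4 and 25.2 CPM in KO and 14.1, 12.9 and 16.8 CPM in WT (0.84 ± 0.09). Exoc2, an exocyst subunit, stood at 50.8 ± 1.49 CPM in KO and 41.6 ± 1.6 CPM in WT (0.29 ± 0.05). For all 3 the groups were apart, as they were for 6 of the 9 genes and for 38.2% of all tested genes. Pi4kb fell by 0.16 on the log2 scale (edgeR, Benjamini-Hochberg adjusted p = 0.0173), a call lost in 7 of 15 alternatives, library totals and limma on FPKM among them (adjusted p up to 0.106). Rab3ip, which encodes the NDR substrate Rabin8, was at -0.17 ± 0.08 and did not pass.

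Of 7 AGC kinase genes near the NDR and LATS branch 2 rose, 0 fell and 5 did not pass (median 0.04). Mastl, the Greatwall kinase of mitosis, was at 0.29 ± 0.07 and Rock2 at 0.16 ± 0.04 (edgeR, Benjamini-Hochberg adjusted p = 0.0143 and 0.0246). Without KO replicate 1 or WT replicate 3 neither was called. Cit (0.15 ± 0.08) and Cdc42bpa (0.04 ± 0.02) did not pass.

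**Figure D4:**
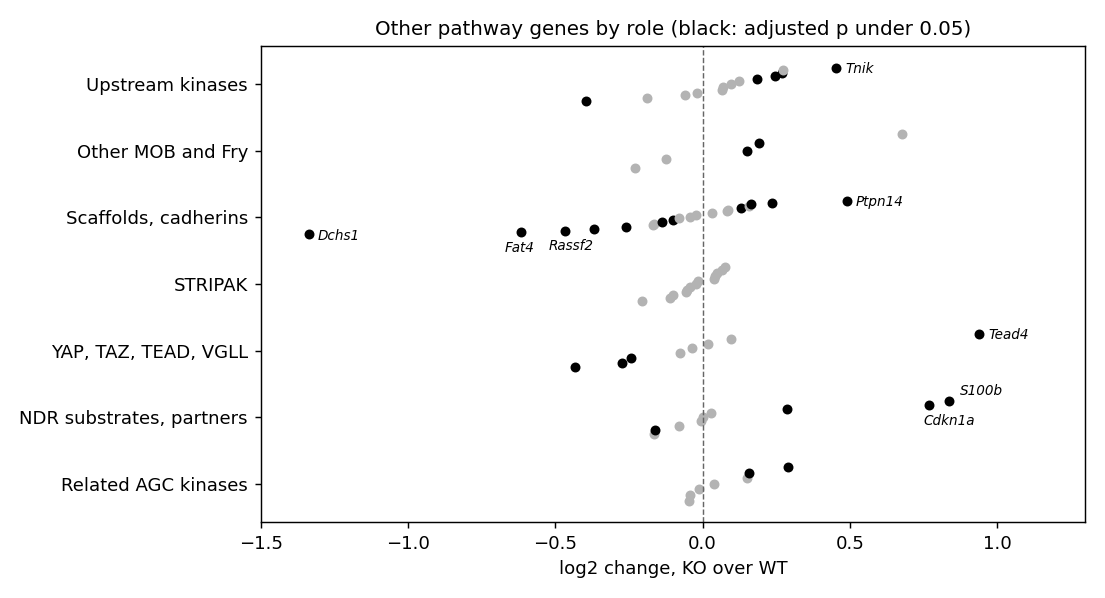
Log2 change KO over WT of each tested gene in the 7 pathway lists (points), black where edgeR's adjusted p was under 0.05. Dchs1 (-1.34) and Fat4 (-0.62) lie farthest to the left, Tead4 (0.94), S100b (0.84) and Cdkn1a (0.77) farthest to the right, and no STRIPAK gene passed.

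Stk38 lies close to Cdkn1a, so its chromosomal neighbours were read as well. Here the start of a gene is its lower coordinate, whatever its strand. For Stk38, on the minus strand, that is the end of the gene away from its promoter. Distances between starts are therefore not distances between promoters or between the nearest ends of 2 genes. Of 72 tested genes whose start lies within 2000 kb of that of Stk38, 7 rose and 10 fell. That is 23.6% called, near the 22.9% over all tested genes and the 25.6% over the rest of chromosome 17. Within 500 kb, a window chosen after seeing the data, 4 rose and 3 fell of 20, or 35.0%. On the lower-coordinate side the nearest tested gene was Kctd20, whose start lies 18.9 kb away. It ends at 29188523, just short of Stk38, which begins at 29189854. Kctd20 fell to 106.8 ± 1.54 CPM in KO, against 122.7 ± 3.25 CPM in WT (-0.20 ± 0.03). Beyond it lay Bnip5 (0.14 ± 0.50, not called), Brpf3 (0.17 ± 0.05), Mapk13 and Mapk14 (-0.04 ± 0.05, not called).

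Mapk13, the p38 delta kinase gene, has its start 201.6 kb from that of Stk38. It had 11.7, 10.48 and 11.4 CPM in KO and 3.79, 4.89 and 4.75 CPM in WT. All KO values lay above all WT values, and the change was 1.32 ± 0.12 (edgeR, Benjamini-Hochberg adjusted p = 2.21e-05), while its neighbour Mapk14, the p38 alpha gene, did not pass. On the higher-coordinate side came the splicing factor gene Srsf3 (-0.11 ± 0.03), Gm41556 (0.74 ± 0.57, not called), the p53-induced noncoding RNA gene Trp53cor1 (0.65 ± 0.19), Cdkn1a at 120.1 kb, and Dino (0.48 ± 0.27, not called). Srsf3 was called in only 6 of 15 alternatives, and lost its call with library totals, without a count filter, in limma on FPKM (adjusted p up to 0.198) and without KO replicate 1 or 2 or WT replicate 1 or 2. Trp53cor1 and Brpf3 lost theirs, among other settings, with the replicate block and without KO replicate 2 or 3. Whether counting used strand is not given, and Dino lies within the Cdkn1a locus, so reads of the pair cannot be told apart.

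**Figure D5:**
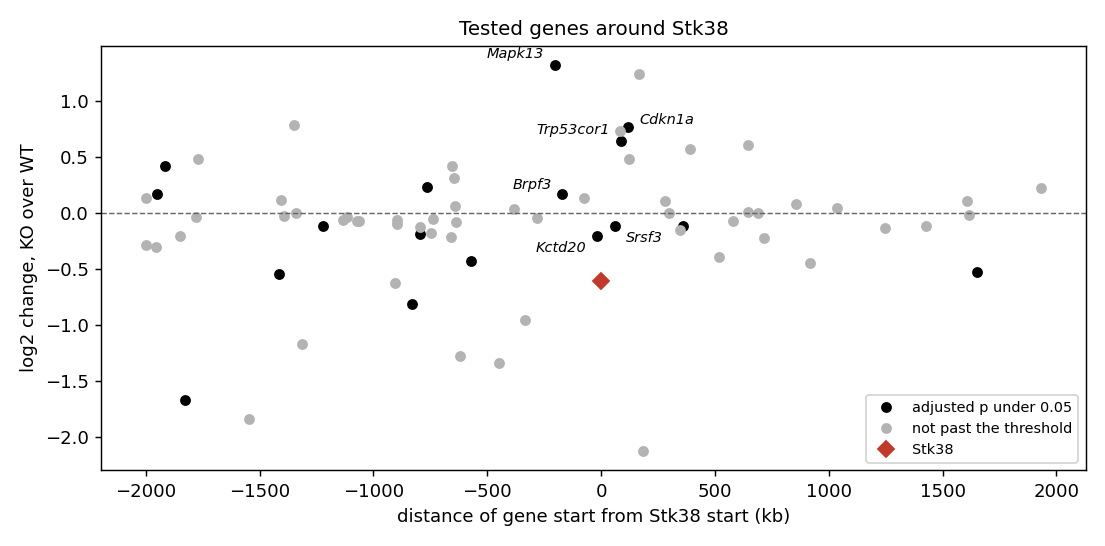
Log2 change KO over WT of tested genes against the distance of their start from the start of Stk38 in kb, black where the adjusted p was under 0.05, with Stk38 as a diamond. Starts are lower coordinates, whatever the strand. Mapk13 (1.32) and Cdkn1a (0.77) stand highest among the called genes, at -201.6 and 120.1 kb, and Kctd20 and Srsf3 next to Stk38 are slightly below 0.

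The genes whose profile was most like that of Stk38 over the 6 libraries were sought among 9701 genes with a mean of at least 10 CPM, by the Euclidean distance of centred log2 CPM. The nearest were Rsph3a (distance 0.096), Ephb3 (0.0999), Pxdn (0.105), Pnma8b (0.107) and Osbpl6 (0.113), against a median distance of 0.77. Their log2 changes lay between -0.64 and -0.60, beside -0.61 for Stk38. With 2 genotypes the measure mostly finds genes that fell by the same amount.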

How the data were processed

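RNA sequencing of calvarial osteoblasts gave 3 NDR1 KO and 3 WT libraries, grouped by their labels. The table of 29018 genes held counts per gene, which per the file headers were deposited unscaled as whole numbers, and FPKM computed by the authors. No source used here states the counting tool. The submitters' processing notes name cutadapt 1.9, HISAT2 2.0.4 and StringTie 1.3.4d, and a human build although all identifiers are of mouse. Of 27342 identifiers shared with GENCODE M21, 495 had its coordinates.

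The 10 genes, the lists and the tests were chosen with earlier results of these data known. Counts were tested with edgeR 4.0.16 in R 4.3.3 by its two-sided quasi-likelihood test after TMM scaling and filterByExpr, without covariates, with Benjamini-Hochberg adjustment over 18221 genes and a threshold of 0.05. Each SE is the size of the log2 change divided by the root of its F statistic. edgeR's common biological coefficient of variation was 12.6%. Ratios of FPKM used exact permutation tests. Alternatives were library totals without TMM, DESeq2 size factors, DESeq2 1.42.0, other count filters, limma 3.58.1 on log2(FPKM + 1) or log2(FPKM + 0.1), keeping mean FPKM values from 0.1 up, or unfiltered, a replicate block, and leaving out each library. The fits were tested on simulated data. Named genes were the 10 members, the 4 of lowest p per list, the 5 nearest tested neighbours of Stk38 on each side and the 5 genes most like it. Intervals cover the spread between these libraries only.

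Of all calls 49% were higher in KO with TMM, 63% with library totals and 63.8% in limma on FPKM. The median log2 change of all genes was 0.00 with TMM and 0.05 with library totals.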

Additional observations from a re-analysis of the deposited data

Results flagged for a closer look

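Reads of Gm23887, the snRNA gene in intron 4 of Stk38, were flagged in data outside the tested genes. Its counts were higher in every KO library than in any WT library, but 38.2% of tested genes also had groups that did not overlap. The Gm23887 counts summed to 51 in KO (15, 27 and 9) and to 4 in WT (0, 0 and 4). Stk38 itself fell in the same libraries, to 3843, 3004 and 4040 counts in KO, against 4781, 5082 and 5331 in WT. Among other untested genes in introns of the family, Gm44270 in Stk38l had 1, 4 and 7 counts in KO and 4, 0 and 0 in WT, and Gm26440 in Lats2 had 4, 2 and 6 in KO and 4, 5 and 2 in WT. Gm11455 in Stk4 had 0, 0 and 4 in KO and 0, 2 and 4 in WT. Gm45630 in Mob2 had 0, 0 and 4 in KO and 0, 0 and 0 in WT. Without a filter its log2 change was 3.43, near the 3.52 of Gm23887, through the counts of 1 library. Without a count filter Gm23887 did not pass edgeR's test (Benjamini-Hochberg adjusted p = 0.143).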

How the results depend on the processing

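Stk38 and Stk4 kept their direction and call in all 15 alternatives, at log2 changes of -0.64 to -0.47 and -0.34 to -0.23. Stk38l, Lats1, Lats2, Stk3, Mob1a, Mob2 and Fryl were called in none. Stk38l changed sign when libraries were left out (-0.053 to 0.11), and Fryl did so with library totals (0.000748) and in limma on FPKM + 1 with or without a filter (0.0015) and FPKM + 0.1 (0.0018). Mob1b lost its call without a filter in limma (0.23), and without single libraries it ran from 0.17 to 0.28, so the count of members that rose was 0 there and 0 to 1 when libraries were left out. Mapk14 changed sign with library totals (0.010), in limma on FPKM + 1 (0.011) and FPKM + 0.1 (0.011), and when libraries were left out (-0.080 to 0.0024). Bnip5 ran from -0.11 to 0.47 when libraries were left out. All genes called as lower numbered 1395, 1382 and 1246 in limma on FPKM + 1, FPKM + 0.1 and without a filter, against 2131. Called neighbours of Stk38 that rose numbered 4 to 7 when libraries were left out and 4 within 500 kb. Those that fell numbered 6 with library totals, 5, 4 and 4 in the 3 limma fits, 6 to 9 when libraries were left out, and 3 within 500 kb. Upstream kinases that rose, 4 in the main fit, numbered 6 with library totals and with a mean CPM of at least 1. They numbered 5 in limma on FPKM + 1 and FPKM + 0.1, and 3 without a count filter and in limma without a filter. With the replicate block 2 rose, and 1 to 3 with libraries left out. For the other MOB genes, those that rose numbered 1 without a count filter, in limma without a filter and with the replicate block, and 0 to 2 with libraries left out, where 0 to 1 fell. For STRIPAK 1 rose with library totals and in limma on FPKM + 1 or FPKM + 0.1, 2 fell with a mean CPM of at least 1, and 0 to 1 fell with libraries left out. Effectors that rose numbered 2 with library totals, DESeq2, a mean CPM of at least 1 or limma on FPKM + 1, 0 without a count filter, and 0 to 1 with libraries left out. Substrates that fell numbered 0 with library totals and in limma on FPKM + 1, FPKM + 0.1 and without a filter, and 0 to 1 with libraries left out. Related kinases that rose numbered 0 to 2 with libraries left out. The causes were not tested. Same-numbered libraries did not deviate together (correlations -0.045, -0.030 and -0.0069 over 18221 genes). Whether equal numbers mark a shared preparation is not given, and these correlations cannot decide it. The replicate block left Stk38 at -0.61, Stk4 at -0.31 and Mob1b at 0.24, and called 3888 genes, against 4179 without it. With the block as sign flips, the Stk38 to Stk38l ratio kept its difference of -0.65 at an exact p of 0.25, the smallest possible (0.333 adjusted). The other named genes gave 542 unchanged calls, 65 lost, 9 gained and 8 changes of sign. The 10 genes had at least 1125 counts per library, whereas Gm23887 had at most 27.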
